A study of Mus musculus with 12 samples.

Results

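Eef1a1 and Eef1a2 encode the ubiquitous and the muscle and neuronal form of eukaryotic translation elongation factor 1A (eEF1A). Both were chosen by name, and they are 2 of the 55401 genes listed for every library. They were measured in adult mouse hearts of 2 genotypes, wild type (WT) and Rpl3l-/- (KO hereafter), as 2 RNA fractions with 3 biological replicates each, 12 nanopore direct cDNA libraries in all. Rpl3l is the striated-muscle paralog of the ribosomal protein gene Rpl3. The Input fraction was total RNA purified with TRIzol from heart homogenates. For the IP fraction, hearts were treated on excision with cycloheximide, which holds ribosomes on mRNA. They were homogenised with detergent and heparin, and ribosomes were captured on magnetic beads through an antibody against HA before their RNA was purified on columns. Both fractions were then enriched for poly(A) RNA. The purification method, the cycloheximide treatment and the fraction therefore changed together and cannot be told apart. The labels give no age beyond adult and no strain. They do not name the allele that carries the HA tag or the cells that express it, and they leave unstated whether any heart gave both an IP and an Input library.

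eEF1A is a GTPase that binds aminoacyl-tRNA and delivers it to the ribosomal A site at each step of elongation. After GTP hydrolysis it leaves the ribosome bound to GDP, and the eEF1B complex recharges it. In heart and skeletal muscle the Eef1a1 form is the main one before birth, Eef1a2 takes over during postnatal maturation, and both forms carry out the same reaction. The Eef1a1 mRNA belongs to the terminal oligopyrimidine (TOP) class, together with the mRNAs of ribosomal proteins, whose loading onto ribosomes is controlled as a group by mTORC1 signalling.

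Because the messages encode near-identical proteins, how well their reads can be told apart bears on each value that follows. In GENCODE M21 (build GRCm38), Eef1a1 (ENSMUSG00000037742.14) lies on the minus strand of chromosome 9, from 78478449 to 78489151. Its full-length transcript Eef1a1-201 has 8 exons, 7 of them coding, and 1794 bases, of which 120 are 5′ UTR, 1389 coding sequence with the stop codon and 285 3′ UTR. A miRNA gene, Gm26377, overlaps it on the same strand and held 20 counts in all, and no gene overlaps Eef1a2. Eef1a2 (ENSMUSG00000016349.10) lies on the minus strand of chromosome 2, from 181147653 to 181157014, and has 1 annotated transcript of 2084 bases, also with 8 exons and 7 coding ones. Its 5′ UTR has 366 bases, its coding sequence 1392 and its 3′ UTR 326. The coding sequences were identical at 79.96% of 1392 aligned columns. Of 276 mismatches, 224 (81.2%) fell on the third base of a codon. The longest identical stretch was 23 bases, and the 3′ UTRs shared no word of 20 bases. The first 90 coding bases show the pattern. They are given 5′ to 3′ on the minus strand, with the differing bases in capitals, and all 15 differences are at the third codon base:
Eef1a1, chr9:78480565-78480654: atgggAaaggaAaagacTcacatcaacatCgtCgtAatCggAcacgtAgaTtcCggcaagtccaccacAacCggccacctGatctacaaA
Eef1a2, chr2:181155317-181155406: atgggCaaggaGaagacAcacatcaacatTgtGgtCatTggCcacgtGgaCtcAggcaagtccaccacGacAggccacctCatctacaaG
A read that spans the coding sequence therefore crosses differing bases along its length, and the 3′ UTRs share no long identical stretch.

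Processed pseudogenes of Eef1a1 are a closer match to it than Eef1a2 is. Of the annotated pseudogenes in the gene table, 17 matched Eef1a1 at 80% identity or more over at least 300 bases, and none was closer to Eef1a2. Counts were listed at 6 of the 17, with 793 counts over the 12 libraries against 1598 at Eef1a1 itself, or 49.6% of the Eef1a1 counts. Gm6767 on chromosome 16 (51362452 to 51363832, 96.0% identity over 1389 bases) held 348. Gm36985 on chromosome 3 (60860707 to 60861085, 90.6% over 393 bases) held 248, and Gm6548 on chromosome 17 (78850792 to 78851956, 96.7% over 1166 bases) held 179. How the authors assigned reads between Eef1a1 and these copies is not stated in the sources used here. Values for Eef1a1 are therefore given as deposited, and again with the copies added where that matters.

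Library totals ran from 169359 to 710868 counts, the smallest being KO Input replicate 3, and 3 counts stood for 4.22 to 17.7 CPM, counts scaled by library size. Totals were 169359 to 443177 in Input and 443525 to 710868 in IP, so depth also changed with the fraction. Globin genes took 1.70% to 17.3% of the counts. The genotype labels were checked on the deleted gene: Rpl3l fell by 2.46 on the log2 scale in KO Input (edgeR adjusted p = 1.77e-05) and fell by 5.84 in IP (edgeR adjusted p = 9.27e-12). Cardiomyocyte markers led by Myl2 and Tnnt2 were abundant in every library, 72302 to 87815 CPM summed over 12 genes, with Actc1 the one listed at 0 throughout. The labels call the replicates biological triplicates and say no more of them.

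Eef1a1 was several-fold less abundant in the ribosome pull-down than in total RNA, and Eef1a2 more abundant, in both genotypes. In WT Input, Eef1a1 was at 548, 523 and 608 CPM (scaled with TMM factors, edgeR's correction of library size for composition), from 220, 212 and 181 counts. In KO Input it was at 583, 620.2 and 341 CPM, the last from 60 counts in KO Input replicate 3. In WT IP the levels were 152, 171 and 181 CPM, and in KO IP 189, 154 and 176 CPM. Every IP library was below every Input library. The Input values were close together apart from KO Input replicate 3, and the 6 IP values of the 2 genotypes overlapped. Of all tested genes, 34.6% had no overlap between IP and Input libraries in WT and 30.8% in KO.

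Eef1a2 showed the opposite order. Its levels were 621, 749.7 and 635 CPM in WT Input and 522, 697 and 676 CPM in KO Input. They were 981, 1129 and 1159 CPM in WT IP and 1342, 1065 and 1012 CPM in KO IP. All 6 IP libraries were above all 6 Input libraries, and within each fraction the genotypes overlapped. Within a genotype, 34.6% of all tested genes had no overlap between IP and Input in WT and 30.8% in KO, in either direction. The share over both genotypes together was not computed. The highest Eef1a2 value was in KO IP replicate 1, and unlike Eef1a1 no Input library stood far below the others.

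**Figure D1:**
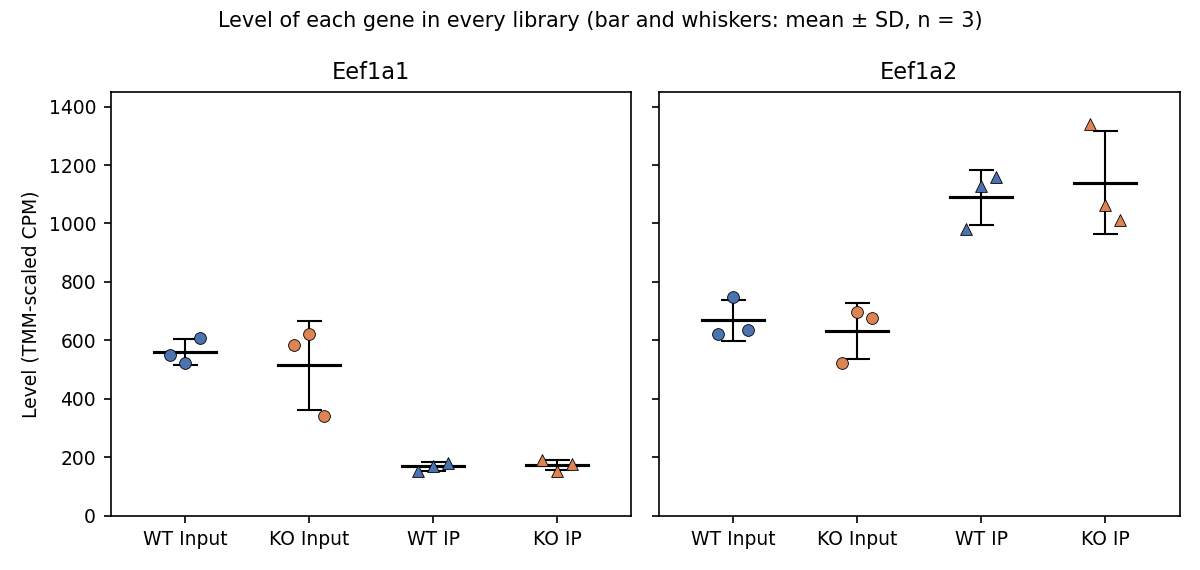
Level of Eef1a1 (left) and Eef1a2 (right) in TMM-scaled CPM for each of the 12 libraries. Points are libraries, circles Input and triangles IP, blue WT and orange KO, with the mean as a bar and the SD of 3 libraries as whiskers. IP points lie below all Input points for Eef1a1 (152 to 189 against 341 to 620.2 CPM) and above them for Eef1a2 (981 to 1342 against 522 to 749.7 CPM).

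As group means, Eef1a1 stood at 559.7 ± 43.7 CPM in WT Input, 514.6 ± 152 in KO Input, 168 ± 14.7 in WT IP and 173 ± 17.5 in KO IP (SD, n = 3 each). Its mean was 3.32-fold higher in Input than in IP in WT and 2.97-fold higher in KO, or 3.47-fold higher in KO without KO Input replicate 3. In edgeR's quasi-likelihood test over all genes, the log2 fold change of IP against Input was -1.73 in WT (SE 0.19, 95% interval -2.12 to -1.35, adjusted p = 2.91e-07). In KO it was -1.60 (SE 0.19, 95% interval -1.99 to -1.20, edgeR adjusted p = 1.52e-06), and -1.80 without KO Input replicate 3. Eef1a2 had means of 668 ± 70.8, 632 ± 95.8, 1089.7 ± 94.9 and 1139.6 ± 177 CPM in the same order of groups, 1.63-fold higher in IP than in Input in WT and 1.80-fold higher in KO. Its log2 fold change was 0.70 in WT (SE 0.16, 95% interval 0.37 to 1.04, edgeR adjusted p = 0.00388) and 0.85 in KO (SE 0.17, 95% interval 0.51 to 1.19, edgeR adjusted p = 0.000787). Both genes were thus called in both genotypes, where 14% of the 6596 tested genes were called in WT and 16.4% in KO. For lower calls the share was 8.67% in WT and 9.78% in KO, and for higher calls 5.37% and 6.64%. Only 120 tested genes (1.82%) had a lower IP to Input ratio than Eef1a1 in WT, and 195 (2.96%) in KO. Eef1a2 was less extreme, with 747 genes (11.3%) above it in WT and 751 (11.4%) in KO. In bulk libraries such as these, fewer cells of a type and less RNA per cell cannot be told apart.

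With the counts at its pseudogenes added, Eef1a1 still fell by 1.45 on the log2 scale from Input to IP in WT (edgeR adjusted p = 5.29e-07) and fell by 1.44 in KO (edgeR adjusted p = 8.57e-07). The copies held a smaller part of the joint counts in Input than in IP, apart from KO Input replicate 3. They made up 27.2%, 25.4% and 30.4% of Eef1a1 plus copies in WT Input and 38.0%, 39.4% and 43.7% in WT IP. In KO they made up 24.3%, 26.8% and 47.4% in Input and 39.6%, 39.5% and 36.1% in IP. KO Input replicate 3, the shallowest library and the one with the low Eef1a1 value, had 54 counts at the copies beside 60 at Eef1a1. Its joint level was 648 CPM, against 769 and 847 CPM in the other KO Input libraries, so adding the copies narrowed its distance from them. As separate genes, Gm6767 fell by 0.93 in IP in WT (edgeR adjusted p = 0.0219) and fell by 1.26 in KO (edgeR adjusted p = 0.00308). Gm36985 fell by 1.14 in WT (edgeR adjusted p = 0.0189) and fell by 1.01 in KO (edgeR adjusted p = 0.0474). Gm6548 fell by 1.14 in KO (edgeR adjusted p = 0.0376), and had a log2 fold change of -0.59 in WT (edgeR adjusted p = 0.274). Apart from that of Gm6767 in KO, these calls at the copies were lost in at least 4 of their alternative settings. Whether these counts are Eef1a1 reads placed at a copy was not tested.

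The balance of the 2 forms can be read within each library, where depth and scaling cancel. Eef1a2 made up 53.1%, 58.9% and 51.1% of the summed Eef1a1 and Eef1a2 counts in WT Input, and 47.2%, 52.9% and 66.5% in KO Input. In WT IP it made up 86.6%, 86.8% and 86.5%, and in KO IP 87.7%, 87.3% and 85.2%. The ribosome pull-down thus held mostly Eef1a2, with no overlap between fractions in either genotype, and in Input the share lay on either side of 50%. Exact 95% binomial (Clopper-Pearson) intervals, which cover counting error only, ran from 41.4% to 53.2% in KO Input replicate 1, the lowest library. They lay above 50% in WT Input replicate 2, from 54.5% to 63.2%, and KO Input replicate 3, from 59.1% to 73.3%, and included it in the other Input libraries. The interval of KO Input replicate 3 did not reach the intervals of the IP libraries, whose lowest bound was 82.4%. Per library the IP shares had SDs of 0.187 points in WT and 1.35 points in KO, against 4.07 and 9.88 points in Input. The WT IP intervals are far wider than their SD, at 83.9% to 88.9% in replicate 1, so 0.187 lies below counting error. Such closeness of 3 libraries is no measure of how little the pull-down varies. Input libraries also held fewer eEF1A counts. As log2 ratios of Eef1a2 to Eef1a1, the SDs were 0.0234 in WT IP, 0.166 in KO IP, 0.238 in WT Input and 0.591 in KO Input.

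**Figure D2:**
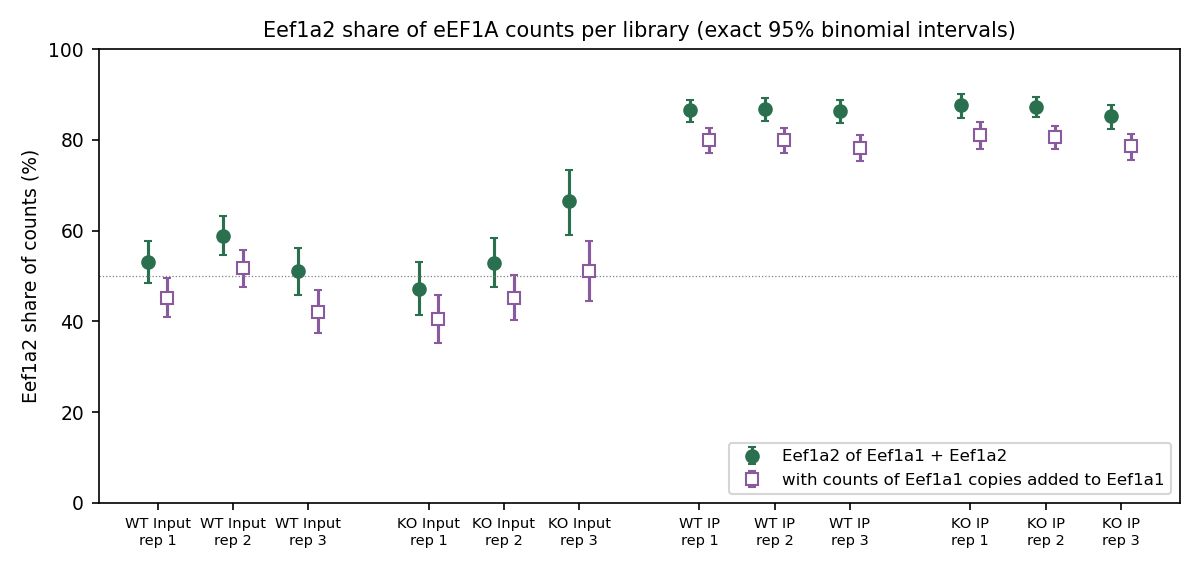
Eef1a2 as a percentage of eEF1A counts in each of the 12 libraries, with exact 95% binomial intervals. Filled circles use Eef1a1 and Eef1a2 alone, open squares add the counts at the Eef1a1 pseudogenes to Eef1a1, and the dotted line marks 50%. The filled circles lie between 47.2% and 66.5% in Input and between 85.2% and 87.7% in IP, and the squares lie lower in every library.

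As a ratio, Eef1a2 to Eef1a1 had geometric means of 1.19 in WT Input, 1.26 in KO Input, 6.47 in WT IP and 6.55 in KO IP. The ratio was 5.43-fold higher in IP in WT (log2 difference 2.44) and 5.204-fold higher in KO (log2 difference 2.38). Each of these comparisons of 3 libraries with 3 had an exact two-sided permutation p of 0.10, the smallest the design allows. With fraction labels exchanged within each genotype, the joint difference was 5.31-fold (log2 difference 2.41), higher in 6 of 6 IP libraries, with an exact permutation p of 0.005. That is the smallest of 400 relabellings, and it became 0.07 after Benjamini-Hochberg adjustment over the 14 permutation tests of ratio and sum, which misses the threshold of 0.05. With the pseudogene counts added to Eef1a1, Eef1a2 took 46.3% ± 4.90 of the counts in WT Input and 45.5% ± 5.34 in KO Input, and 79.4% ± 1.00 in WT IP and 80.1% ± 1.35 in KO IP (SD, n = 3 each).

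Per kilobase of transcript, a scaling that assumes counts grow with transcript length, the 8 levels fell into 3 tiers. Whether counts in these nanopore libraries grow with length was not tested. Eef1a2 in IP was highest, at 547 ± 85.0 CPM per kb in KO and 523 ± 45.5 in WT. The 4 Input levels lay together, with Eef1a2 at 321 ± 34.0 in WT and 303 ± 46.0 in KO, and Eef1a1 at 312 ± 24.3 in WT and 287 ± 84.5 in KO. Eef1a1 in IP was lowest, at 96.5 ± 9.77 in KO and 93.9 ± 8.18 in WT (SD, n = 3 each). Within a tier, neighbours in the order differed by less than their SDs. The ratio of Eef1a2 to Eef1a1 per kilobase was 1.04 ± 0.176 in WT Input and 1.15 ± 0.494 in KO Input. In IP the ratio per kilobase was 5.57 ± 0.0906 in WT and 5.67 ± 0.629 in KO. Without division by length, the mean ratio was 1.20 ± 0.204 in WT Input and 1.33 ± 0.574 in KO Input. The undivided ratio in IP was 6.47 ± 0.105 in WT and 6.58 ± 0.730 in KO.

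The sum of the 2 messages moved far less than either of them. It was 1228 ± 53.3 CPM in WT Input, 1146 ± 154 in KO Input, 1258 ± 109 in WT IP and 1313 ± 189 in KO IP (SD, n = 3 each). The log2 difference of IP from Input was 0.03 in WT (exact permutation p = 0.7) and 0.19 in KO (exact permutation p = 0.4). Over both genotypes it was 0.11 (exact permutation p = 0.25, 0.875 after adjustment over the 14 tests). With the copies added, the WT and the joint difference were -0.08 and -0.02.

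Neither form passed the test between KO and WT hearts in either fraction. In Input, KO against WT, the log2 fold change was -0.10 for Eef1a1 (SE 0.18, 95% interval -0.48 to 0.28, edgeR adjusted p = 0.939) and -0.09 for Eef1a2 (SE 0.17, 95% interval -0.44 to 0.26, edgeR adjusted p = 0.944). Neither of the 2 genes was called, where 0.182% of the tested genes were. In IP the fold changes were 0.03 for Eef1a1 (SE 0.19, 95% interval -0.36 to 0.43, edgeR adjusted p = 0.999) and 0.06 for Eef1a2 (SE 0.16, 95% interval -0.26 to 0.39, edgeR adjusted p = 0.994), with 0.091% of the tested genes called. Without KO Input replicate 3, the Eef1a1 fold change in Input turned to 0.11. The interaction, which is the KO minus WT difference in the log2 IP to Input ratio, was 0.13 for Eef1a1 (SE 0.27, 95% interval -0.41 to 0.68, edgeR adjusted p = 0.949) and 0.15 for Eef1a2 (SE 0.23, 95% interval -0.33 to 0.62, edgeR adjusted p = 0.936), and 0.091% of the tested genes were called there.

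Within a fraction, a test of the Eef1a2 to Eef1a1 ratio or of the summed level between genotypes cannot pass, since 0.10 is the smallest exact permutation p for 3 libraries against 3. The log2 difference of the ratio, KO minus WT, was 0.08 in Input (exact permutation p = 0.9), 0.02 in IP (exact permutation p = 1) and 0.05 over both fractions (exact permutation p = 0.82). The interaction was -0.06 (exact permutation p = 0.88). For the summed level the difference was -0.11 in Input (exact permutation p = 0.5), 0.06 in IP (exact permutation p = 0.8) and -0.03 over both fractions (exact permutation p = 0.765). These p-values do not show that the genotypes are alike. Rpl3, the paralog of the deleted gene, rose in these same KO libraries, by 0.95 in Input (edgeR adjusted p = 0.0102) and 1.35 in IP (edgeR adjusted p = 0.000171), at a level of 241 ± 18.7 CPM in WT Input and 89.1 ± 13.4 CPM in WT IP (SD, n = 3 each).

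**Figure D3:**
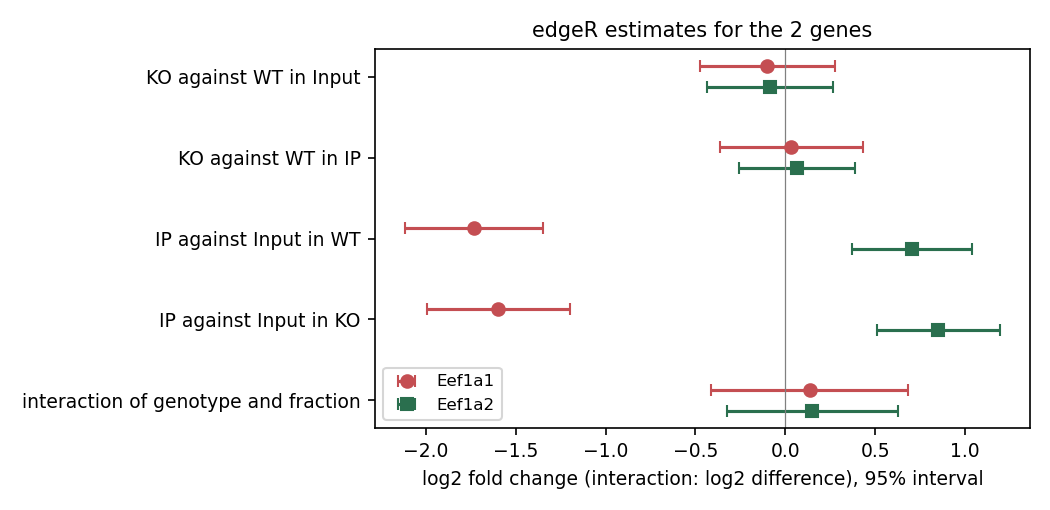
Log2 fold changes of Eef1a1 (red circles) and Eef1a2 (green squares) in the 5 edgeR comparisons, with 95% intervals. The intervals for IP against Input lie wholly below 0 for Eef1a1 (-2.12 to -1.20 over both genotypes) and wholly above 0 for Eef1a2 (0.37 to 1.19), and those for genotype and for the interaction span 0.

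The replicates of each gene spread about as much as counting error alone predicts for Eef1a1 in 3 groups, and more for Eef1a2. The coefficient of variation of Eef1a1 was 7.80% in WT Input, 8.71% in WT IP and 10.1% in KO IP, where its counts alone would give 6.996%, 9.90% and 9.92%. In KO Input it was 29.4% against 8.96%. Eef1a2 varied by 10.6%, 15.2%, 8.71% and 15.5% in WT Input, KO Input, WT IP and KO IP, where counting alone would give 6.36%, 8.29%, 3.89% and 3.87%. By counts, Eef1a2 ranked 227th to 340th among all genes of an Input library and 95th to 136th in IP, and Eef1a1 ranked 291st to 426th in Input and 757th to 949th in IP.

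The other genes of the elongation machinery were followed as a list of 29 names, with Mettl13 also under its other name Eef1aknmt. Of these names 28 were in the gene table, and 17 genes were abundant enough to be tested. In IP against Input, 0 rose and 4 fell in WT, and 0 rose and 3 fell in KO by edgeR, where 8.67% of all tested genes fell in WT and 9.78% in KO. The list median was a log2 fold change of -0.03 in WT and -0.14 in KO, beside 0.02 and 0.01 for all tested genes. It took either sign over the 22 alternative settings, from -0.43 to 0.14 in WT and from -0.31 to 0.02 in KO. At an unadjusted p under 0.05, edgeR had 2 higher and 5 lower in WT and 0 higher and 3 lower in KO. DESeq2 had 1 higher and 5 lower in WT and 0 higher and 3 lower in KO at that threshold. At an adjusted p under 0.05, DESeq2 called 0 higher and 2 lower in WT and 0 higher and 3 lower in KO. Between genotypes 0 of the 17 were called by edgeR or DESeq2 in either fraction, and 0 had an unadjusted edgeR p under 0.05.

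None of the called genes had an estimate as low as that of Eef1a1, and the subunits of its exchange factor differed among themselves. Eef1b2, the catalytic exchange subunit that reloads eEF1A with GTP, fell by 1.20 in IP in WT (SE 0.19, edgeR adjusted p = 6.18e-05) and fell by 0.82 in KO (SE 0.19, edgeR adjusted p = 0.00371). Its level was 418 ± 9.59 CPM in WT Input and 183 ± 47.0 CPM in WT IP (SD, n = 3 each). Eef1g, the scaffold subunit of the complex, fell by 0.63 in WT (SE 0.20, edgeR adjusted p = 0.0357) and had a log2 fold change of -0.14 in KO (edgeR adjusted p = 0.715). The difference between genotypes for Eef1g was 0.49 (edgeR adjusted p = 0.777). Eef1d, the second exchange subunit, had log2 fold changes of -0.03 in WT and 0.16 in KO, and neither was called.

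Eef2, the translocase that moves the ribosome along after each peptide bond, had log2 fold changes of -0.26 in WT (SE 0.16, edgeR adjusted p = 0.305) and -0.10 in KO (SE 0.16, edgeR adjusted p = 0.748). Eif5a, the hypusine-bearing factor that helps ribosomes past difficult peptide bonds, fell by 0.81 in WT (edgeR adjusted p = 0.00105) and fell by 0.82 in KO (edgeR adjusted p = 0.00110). Dph3, an electron donor in the making of the diphthamide residue of eEF2, fell by 0.78 in WT (edgeR adjusted p = 0.0298) and fell by 1.22 in KO (edgeR adjusted p = 0.00166). Of the methyltransferases that modify eEF1A itself, Eef1akmt1 and Eef1akmt2 were tested and not called, and Eef1akmt3 was listed at 0. Eef1akmt4 and Mettl13 held 31 and 24 counts over all libraries and were not tested. In WT Input the levels per kilobase were 241 CPM per kb for Eef2, 216 for Eef1b2, 144 for Eef1g and 79.4 for Eef1d. On that scale all of them lay below both eEF1A messages. Without division by length, Eef2 stood at 743 CPM in WT Input, above Eef1a2 at 668 and Eef1a1 at 559.7. Eef1b2, Eef1g and Eef1d stood at 418, 268 and 226 CPM there, below both eEF1A messages. The WT calls of Eef1g and Dph3 were lost in 11 and 8 of 22 alternative settings, while Eef1b2 was called in all 22 in both genotypes.

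The cytosolic ribosomal protein genes, the core of the TOP class, lay where Eef1a1 did. Of 85 such genes 80 were tested. By edgeR, 73 fell and 0 rose in IP in WT, and 74 fell and 0 rose in KO. Of all tested genes, 8.67% fell and 5.37% rose in WT, and 9.78% and 6.64% in KO. The 74 in KO include the deleted gene Rpl3l, which fell by 3.37 (edgeR adjusted p = 1.79e-05), from 48.9 CPM in KO Input to 4.42 in KO IP. At an unadjusted edgeR p under 0.05 none of the 80 rose either. At an adjusted p under 0.05, DESeq2 called 72 lower and 0 higher in each genotype. Their median log2 fold change was -1.43 in WT and -1.37 in KO, beside -1.73 and -1.60 for Eef1a1. Over the 22 alternative settings the median ran from -1.61 to -1.03 in WT and from -1.44 to -0.92 in KO. The values nearest 0 came with the length trend removed, where 66 were called lower in WT and 62 in KO. Of 18 other TOP mRNAs, all tested, 7 fell and 1 rose in WT and 6 fell and 1 rose in KO, with medians of -0.36 and -0.29. By DESeq2, 4 fell and 0 rose in WT, and 6 fell and 1 rose in KO, as by edgeR there. With library totals in place of TMM factors edgeR had 4 lower and 1 higher in WT and 4 lower and 3 higher in KO. That list holds Eef1b2, Eef1d, Eef1g and Eef2 as well. With those totals, the median of all genes moved to 0.10 in WT and 0.15 in KO, and the split of calls over all genes changed from 354 higher and 572 lower to 386 and 441 in WT, and from 438 and 645 to 599 and 448 in KO. No ribosomal protein gene was called higher under any of the 22 settings in either genotype. What places Eef1a1 among these genes was not tested.

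**Figure D4:**
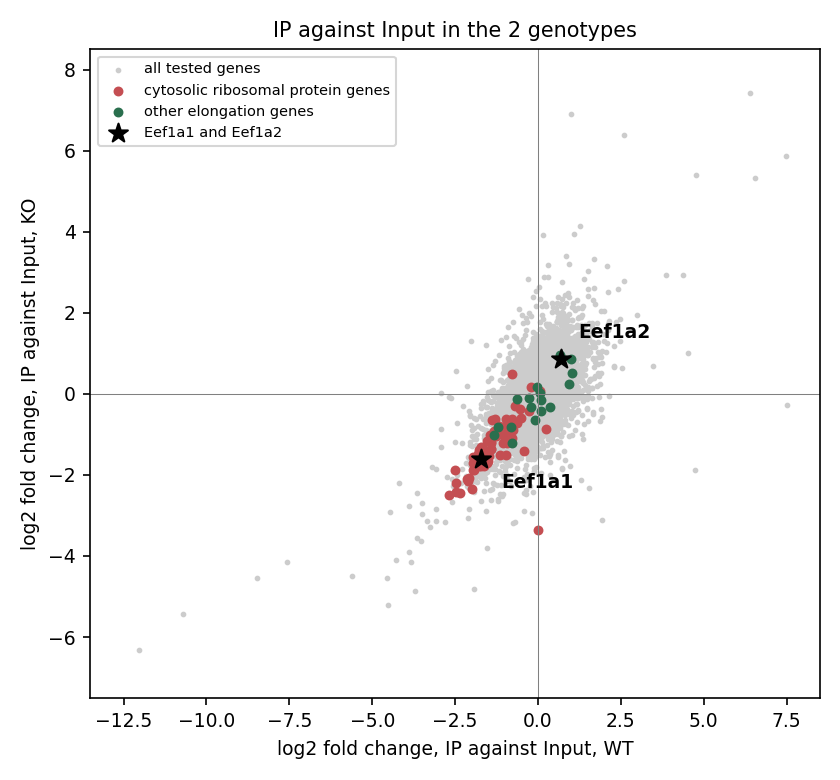
Log2 fold change of IP against Input in KO (y axis) plotted against that in WT (x axis) for the 6596 tested genes (grey), with cytosolic ribosomal protein genes in red, other elongation genes in green and the eEF1A genes as black stars. Eef1a1 lies at -1.73 and -1.60 among the ribosomal protein genes, and Eef1a2 at 0.70 and 0.85. The lone red point low on the y axis is Rpl3l, at 0.01 and -3.37.

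The genes whose levels ran most like each form were ranked by Pearson correlation of log2 CPM over the 12 libraries, among 1511 genes with a mean of at least 100 CPM. For Eef1a1 they included Rpl11 (0.991), Rpl12 (0.989), Gm5426 (0.989) and Rpl41 (0.983). Rpl11, Rpl12 and Rpl41 encode large-subunit ribosomal proteins. For Eef1a2 they were Pde4dip (0.954), Immt (0.953), Perm1 (0.9504), Mrfap1 (0.941) and Plekhb2 (0.937). Pde4dip encodes myomegalin, Immt the mitofilin of mitochondrial cristae, and Perm1 a muscle regulator of oxidative metabolism. Eef1a1 and Eef1a2 had a correlation of -0.894 with each other. All of these values share the libraries and their scaling, and they follow mainly the difference between 6 Input and 6 IP libraries, so they describe rather than test.

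Because Eef1a1 is made in most cell types and Eef1a2 in muscle cells and neurons, marker genes of the cell types of the heart are given beside these results. Summed over each list, the IP to Input ratio of mean CPM was 0.9495 in WT and 0.980 in KO for 12 cardiomyocyte markers, with 11 tested. Of these 11, edgeR called 1 higher and 3 lower in WT, with log2 fold changes from -1.51 to 0.57. In KO, 2 were called higher and 2 lower, from -1.38 to 0.64. For these and the other marker lists, the shares over all tested genes were 5.37% higher and 8.67% lower in WT. In KO those shares were 6.64% and 9.78%. For the fibroblast list, led by Gsn and Dcn, the ratio was 1.02 and 1.12. Of 10 fibroblast markers, 9 were tested. In WT, edgeR called 1 higher and 0 lower, with a median log2 fold change of 0.32 (-0.40 to 0.76). In KO, 0 were called higher and 2 lower, with a median of 0.32 (-1.34 to 0.78). For the endothelial list, led by Fabp4 and Cd36, the ratio was 0.743 and 0.589. Of the 10 endothelial markers, all tested, edgeR called 2 higher and 1 lower in WT, with a median log2 fold change of -0.15 (-1.97 to 1.21), and 1 higher and 4 lower in KO, with a median of -0.38 (-1.79 to 1.35). The smooth muscle and pericyte list gave 1.13 and 1.07, the macrophage list 1.11 and 0.929 and the erythroid list 1.15 and 1.10. Of their 6, 6 and 5 tested genes, in that order, edgeR called 0 higher and 0 lower in each genotype. The erythroid sum varied widely between libraries, from 18276 to 165736 CPM in WT Input and 22835 to 202646 in WT IP. In KO it ran from 16718 to 47594 CPM in Input and 16154 to 72312 in IP. The endothelial sum ran from 4271 to 4685 CPM in WT Input, 4448 to 5751 in KO Input, 3032 to 3699 in WT IP and 2772 to 3061 in KO IP. Adipocyte markers had the lowest ratio, 0.0727 in WT and 0.131 in KO, with 2 of 7 tested, Cfd and Ucp1. Their sum ran from 133 to 699 CPM in WT Input, 170.5 to 385 in KO Input, 16.3 to 54.6 in WT IP and 26.6 to 52.3 in KO IP. Of 6 neuron and Schwann cell markers none passed the count filter, and their summed level was 22.2 to 39.9 CPM in WT Input, 23.1 to 34.1 in KO Input, 8.57 to 35.2 in WT IP and 11.7 to 15.7 in KO IP. The part of cell type in the Eef1a1 and Eef1a2 results was not tested.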

How the data were processed

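Whole-number read counts of 55401 genes, made and deposited by the authors, were used for 12 libraries. The submitters' processing notes name minimap2 2.14, DESeq2 1.34.0 and build GRCm38 without giving their roles, and no source used here states the counting rule. Gene names, exons and coding sequences came from GENCODE M21 (55141 of 55401 gene IDs matched). Tests used edgeR 4.0.16 (R 4.3.3, limma 3.58.1) on 6596 genes, both eEF1A genes among them, that filterByExpr kept at a minimum count of 10 and a minimum total of 15. The quasi-likelihood model had TMM factors and 1 mean per group over all 12 libraries, with Benjamini-Hochberg adjustment over all tested genes and a threshold of 0.05 (biological coefficient of variation 18.2%). Each SE was the absolute log2 fold change over the square root of F. Ratio and summed level were tested by exact two-sided permutation. Pseudogene copies were found with blastn.

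Genes named were both members, Rpl3l and Rpl3, Eef1b2, Eef1d, Eef1g and Eef2, up to 3 further called elongation genes per comparison with the smallest p, the 5 genes most correlated with each member (1 of them is not reported here), and the top 2 genes of a marker list. The pseudogenes, the methyltransferases and the marker listed at 0 were named besides. The members and lists were chosen with earlier results of these data known. Same-numbered libraries did not deviate together, so no pairing was used. Whether libraries with different numbers came from the same heart was not tested, and Input and IP libraries were treated as independent. The alternatives were DESeq2 1.42.0 size factors and test, library totals, no count filter, fits of only the compared libraries, a replicate block, thinning, globin genes left out, the length trend removed (loess span 0.5), the pseudogene copies added (for the edgeR fit chosen after seeing the data), 0.5 counts added to the ratio, and each library left out. The test was tried on simulated data.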

Additional observations from a re-analysis of the deposited data

Results flagged for a closer look

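Counts at the pseudogene copies of Eef1a1 are not part of the deposited Eef1a1 values, which most of the comparisons above use. They came to 793 over the 12 libraries, 49 to 82 in each, in 6 of 17 copies, and no such copy was listed for Eef1a2. Per group, the copies stood at 216 ± 45.0 CPM in WT Input, 240.2 ± 61.2 in KO Input, 115 ± 24.0 in WT IP and 108 ± 13.5 in KO IP (SD, n = 3 each).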

How the results depend on the processing

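The falls of Eef1a1 and the rises of Eef1a2 in IP kept their direction and stayed past the threshold in all 22 alternatives, at -1.78 to -1.45 and 0.65 to 0.80 on the log2 scale in WT and -1.80 to -1.44 and 0.73 to 0.97 in KO. The largest adjusted p was 0.0365, for Eef1a2 in WT. Most of the genotype values of the 2 genes, their ratio and their sum, none of them called, changed sign under some alternative. The Eef1a2 interaction, the summed KO against WT difference in Input and the summed interaction did not. With the pseudogene copies added, the KO against WT value of Eef1a1 in IP was -0.017, the ratio in Input -0.046, its interaction 0.11, and the summed IP against Input difference -0.076 in WT and -0.023 over both genotypes. Thinned to the smallest library, the KO against WT ratio was -0.071 in Input and -0.017 over both fractions, its interaction 0.11, and the summed KO against WT difference over both fractions 0.0095, which was 0.065 with library totals.

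Counts of called genes changed by more than 1.5 times without a count filter (77 for KO against WT in Input, 55 in IP, 37 for the interaction), with the DESeq2 test (10 in IP), and after thinning (484 for IP against Input in WT, 621 in KO, 0 by edgeR for the interaction, with 209 at an unadjusted p under 0.05). The main counts were 12, 6, 926, 1083 and 6. The unfiltered fit tests many more genes, and thinning removes counts. For the others the cause was not tested.

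With 1 library left out in turn, the counts of called genes ranged over 4 to 17 and 2 to 8 for KO against WT in Input and IP, 601 to 1019 and 739 to 1034 for IP against Input in WT and KO, and 1 to 8 for the interaction. The lowest counts in Input and for IP against Input in WT came without WT Input replicate 1. KO against WT ranged over -0.26 to 0.11 for Eef1a1 and -0.18 to 0.026 for Eef1a2 in Input, and -0.040 to 0.11 and -0.070 to 0.14 in IP. The Eef1a1 interaction ranged over -0.074 to 0.29. For the ratio, KO against WT ranged over -0.25 to 0.32 in Input, -0.040 to 0.11 in IP and -0.12 to 0.17 over both fractions, and the interaction over -0.31 to 0.27. For the sum, KO against WT ranged over -0.060 to 0.12 in IP and -0.083 to 0.015 over both fractions, and IP against Input in WT over -0.015 to 0.11. Without KO Input replicate 3 the Eef1a1 value in Input was 0.11 and its interaction -0.074.

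Replicate numbers did not pair the libraries, with correlations of -0.115 to 0.0423 between same-numbered libraries and the own number best in 3 of 36 cases. With a replicate block, IP against Input was -1.73 and -1.59 for Eef1a1 and 0.71 and 0.86 for Eef1a2 in WT and KO, and 15, 8, 858, 1009 and 4 genes were called in the 5 comparisons. It changed no call of either gene. Depth limits the genotype comparisons most in KO Input replicate 3, with 60 counts at Eef1a1.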
